A study of Mus musculus with 6 samples.

Results

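The fibrous and minor collagens described here were 36 genes, chosen by their gene symbols. Of the 32286 features counted in each library, 44 had the symbol of a collagen alpha chain, and the 8 collagens of cartilage (*Col2a1*, *Col9a1*, *Col9a2*, *Col9a3*, *Col10a1*, *Col11a1*, *Col11a2* and *Col27a1*) were left out. The 36 genes were followed in digits in a dish (DID) cultures by droplet single-cell RNA sequencing, in which each captured mRNA molecule is counted once by a unique molecular identifier (UMI). For these cultures the distal mesenchyme of forelimb buds was dissected from wild-type CD-1 mouse embryos at E11.5, pooled, dissociated with trypsin and collagenase, and plated at high density in medium with serum. Cultures were taken after 2, 7 or 10 days, with 2 independent cultures per time point (replicates A and B), which gave 6 libraries. All cultures were wild type and untreated apart from time, so that the comparisons were between days, Day 7 against Day 2 and Day 10 against Day 7. Because the dissected tissue was pooled before plating, a replicate was a culture and not an embryo, and the p-values below measure the spread between cultures.

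Collagens are proteins of the extracellular matrix whose alpha chains wind around each other in a triple helix. The fibril-forming types I, III, V and XXIV assemble into the fibers that give tendon, ligament, perichondrium and bone their tensile strength, and type I, a trimer of *Col1a1* and *Col1a2* chains, is the main protein of bone and tendon matrix. FACIT collagens (fibril-associated collagens with interrupted triple helices) sit on the surface of fibrils, type IV forms the sheets of basement membranes, type VI forms beaded filaments around cells, type VII anchors basement membranes, type VIII forms short-chain networks, types XV and XVIII (multiplexins) are proteoglycans near basement membranes, and types XIII, XVII, XXIII and XXV span the plasma membrane. In the developing limb, cartilage is rich in type II, IX and XI collagens, whereas the tissues around it are rich in type I.

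The chains are shown first by a stretch of their coding sequence, because the glycine repeat is a feature that the gene rule did not use. Among the 36 genes the fibril-forming chains stood apart in it, while the other families overlapped. Of the cartilage collagens left out, *Col2a1* (339), *Col11a1* (338), *Col11a2* (338) and *Col27a1* (217) had longest unbroken runs of glycine triplets of like length. In a triple helix a glycine opens each triplet of residues, and glycine is written GGN in codons. Counted in the longest coding sequence of each gene in the GENCODE M21 annotation of GRCm38, the longest unbroken run of glycine triplets was 338 in *Col1a1*, 339 in *Col1a2*, 344 in *Col3a1*, 338 in *Col5a1*, 339 in *Col5a2*, 337 in *Col5a3* and 216 in *Col24a1*. Type IV chains carried 22 to 27 separate runs of 5 or more triplets, with a longest run of 39 to 66. The longest run was 87 in *Col6a1* and in *Col6a2*, 32 in *Col12a1* and in *Col14a1*, 40 in *Col25a1*, 43 in *Col23a1* and 23 in *Col26a1*. Each line below gives 24 codons of the sense strand from the longest run, 5′ to 3′, with the glycine codon that opens each triplet in capitals. Other glycine codons are in lower case. *Col1a1*, *Col1a2*, *Col3a1* and *Col5a2* had the largest daily means of the 36 genes, *Col4a1*, *Col6a1* and *Col12a1* stand for the network, filament and FACIT families, and *Col23a1*, *Col25a1* and *Col26a1* are the members of 10 CPM or more on Day 2 that fell from Day 2 to Day 7.
Col1a1: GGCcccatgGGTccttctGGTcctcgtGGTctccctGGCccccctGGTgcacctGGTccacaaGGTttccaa
Col1a2: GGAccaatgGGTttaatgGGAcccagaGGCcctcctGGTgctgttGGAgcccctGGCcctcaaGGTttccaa
Col3a1: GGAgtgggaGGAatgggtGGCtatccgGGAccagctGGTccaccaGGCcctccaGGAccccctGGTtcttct
Col5a2: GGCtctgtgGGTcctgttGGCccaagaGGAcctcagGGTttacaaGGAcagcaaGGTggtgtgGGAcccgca
Col4a1: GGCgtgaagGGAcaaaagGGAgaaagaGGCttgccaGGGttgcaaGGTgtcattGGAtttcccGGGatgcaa
Col6a1: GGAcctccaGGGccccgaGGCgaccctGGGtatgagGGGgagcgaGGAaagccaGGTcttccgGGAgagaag
Col12a1: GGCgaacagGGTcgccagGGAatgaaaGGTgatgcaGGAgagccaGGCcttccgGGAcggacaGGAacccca
Col23a1: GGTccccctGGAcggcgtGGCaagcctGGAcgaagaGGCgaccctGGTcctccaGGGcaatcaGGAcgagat
Col25a1: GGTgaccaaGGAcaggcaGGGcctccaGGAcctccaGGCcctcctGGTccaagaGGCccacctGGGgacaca
Col26a1: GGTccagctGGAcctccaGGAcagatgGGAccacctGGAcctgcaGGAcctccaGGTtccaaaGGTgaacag

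In GRCm38 the *Col1a1* stretch lies at chr11:94939451-94939921 on the plus strand and the *Col1a2* stretch at chr6:4512406-4515498 on the plus strand, both interrupted by introns, as were the stretches of *Col3a1* (chr1:45323762-45325395, plus strand), *Col5a2* (chr1:45422422-45426996, minus strand), *Col4a1* (chr8:11247042-11267614, minus strand), *Col6a1* (chr10:76719641-76720996, minus strand), *Col12a1* (chr9:79612441-79613769, minus strand), *Col23a1* (chr11:51316962-51527885, plus strand) and *Col26a1* (chr5:136754952-136757641, minus strand). The *Col25a1* stretch (chr3:130476369-130476440, plus strand) lay within a single exon. The libraries counted tags near the 3′ end of each mRNA, so that UMIs carry no term for gene length, and none of the counts below came from these stretches.

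The 6 libraries held between 9448 and 16486 cells after filtering and between 178022112 and 260245417 UMIs. Median UMIs per cell ranged from 3871 in Day 2 replicate B, in which 41.4% of the cells had fewer than 3000 UMIs, to 24197 in Day 10 replicate A. Any pair of libraries shared 24 to 67 cell barcodes, at most 0.543% of the smaller library. The 9 chondrocyte markers summed to 884 and 955 CPM on Day 2, 7022 and 6785 on Day 7 and 4216 and 3904 on Day 10, while the 5 endothelial markers summed to 1.40 CPM or less and the 5 epithelial markers to 17.4 CPM or less in every library. The 6 interdigital mesenchyme markers, among them *Hoxa13* and *Hoxd13*, were detected in all libraries and summed to 206 and 202 CPM on Day 2.

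All 36 collagens passed the filter on low counts, and 21 of them reached a mean of 10 CPM (the UMIs of a gene per 1000000 UMIs of its library, scaled by TMM factors) on at least 1 day. The 36 genes together made up 0.229% and 0.236% of all UMIs in the Day 2 libraries, 0.631% and 0.589% on Day 7, and 1.09% and 0.988% on Day 10, so that the 3 days did not overlap. The 8 cartilage collagens that were left out made up 0.176% and 0.196%, then 1.82% and 1.67%, then 1.09% and 0.998%. The fibrous and minor collagens therefore held a larger share than the cartilage collagens on Day 2, a smaller share on Day 7 and a like share on Day 10. Within the 36 genes, *Col1a1* and *Col1a2* supplied 39.6% and 40.1% of the UMIs on Day 2, 61.9% in each Day 7 library and 69.6% and 69.1% on Day 10. The 5 largest members supplied 71.8% to 72.8%, 80.6% to 81.2% and 86.4% to 87.0% in the same order, and these were *Col1a1*, *Col1a2*, *Col3a1*, *Col5a2* and *Col12a1* in every library. No member was without a UMI in the Day 2 and Day 7 libraries, and *Col6a4* had none in Day 10 replicate A.

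**Figure D1:**
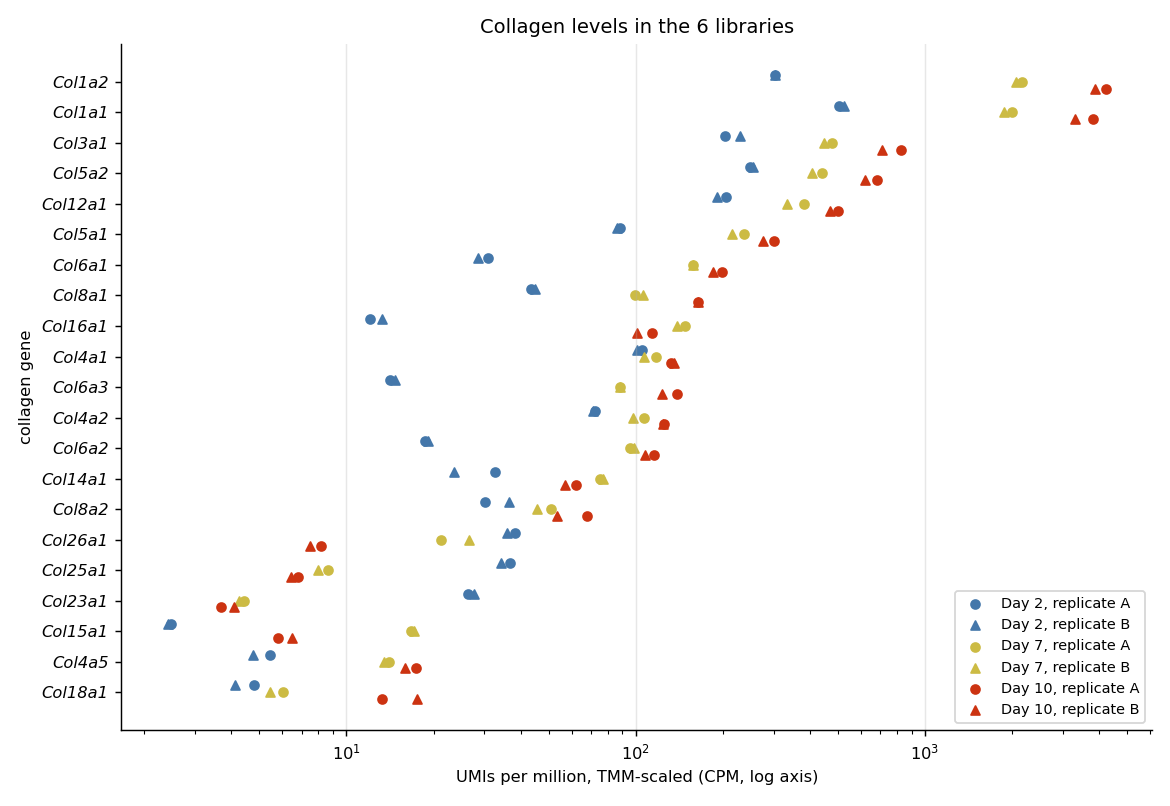
Level of each of the 21 collagens that reached 10 CPM, in CPM after TMM scaling on a log axis, with a circle for replicate A and a triangle for replicate B of each day. *Col1a2* moved from 303 and 302 CPM on Day 2 to 4211 and 3863 on Day 10, while *Col26a1*, *Col25a1* and *Col23a1* ran the other way.

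From Day 2 to Day 7, 27 of the 36 collagens rose, 6 fell and 3 did not pass the test (edgeR quasi-likelihood test, Benjamini-Hochberg adjustment over 18987 genes, adjusted p under 0.05). Over all genes tested 35.7% rose and 34.6% fell. The median log2 fold change of the 36 was 1.25, against 0.01 over all genes tested. From Day 7 to Day 10, 17 rose, 8 fell and 11 did not pass, over a background of 26.3% of all genes higher and 25.9% lower, with a median of 0.25 against -0.02 over all genes. Fewer were called in either direction from Day 7 to Day 10 with each cell weighted equally, as counted at the end of the report. Fewer were also called lower in that step without Day 7 replicate A or Day 10 replicate B. The comparisons share the Day 7 libraries. The Day 7 against Day 2 comparison leaned on the scaling: with library totals in place of TMM factors, the median of all genes moved by -0.28 on the log2 scale and the share of calls that were higher went from 50.8% to 33.3%, whereas from Day 7 to Day 10 the median moved by 0.02 and that share from 50.5% to 54.0%. Without Day 2 replicate B, the library with the shallowest cells, 26 collagens rose and 6 fell from Day 2 to Day 7. A level in a whole library mixes how many cells of each kind it held with how much each cell made, and these cannot be told apart in the sums over whole libraries.

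**Figure D2:**
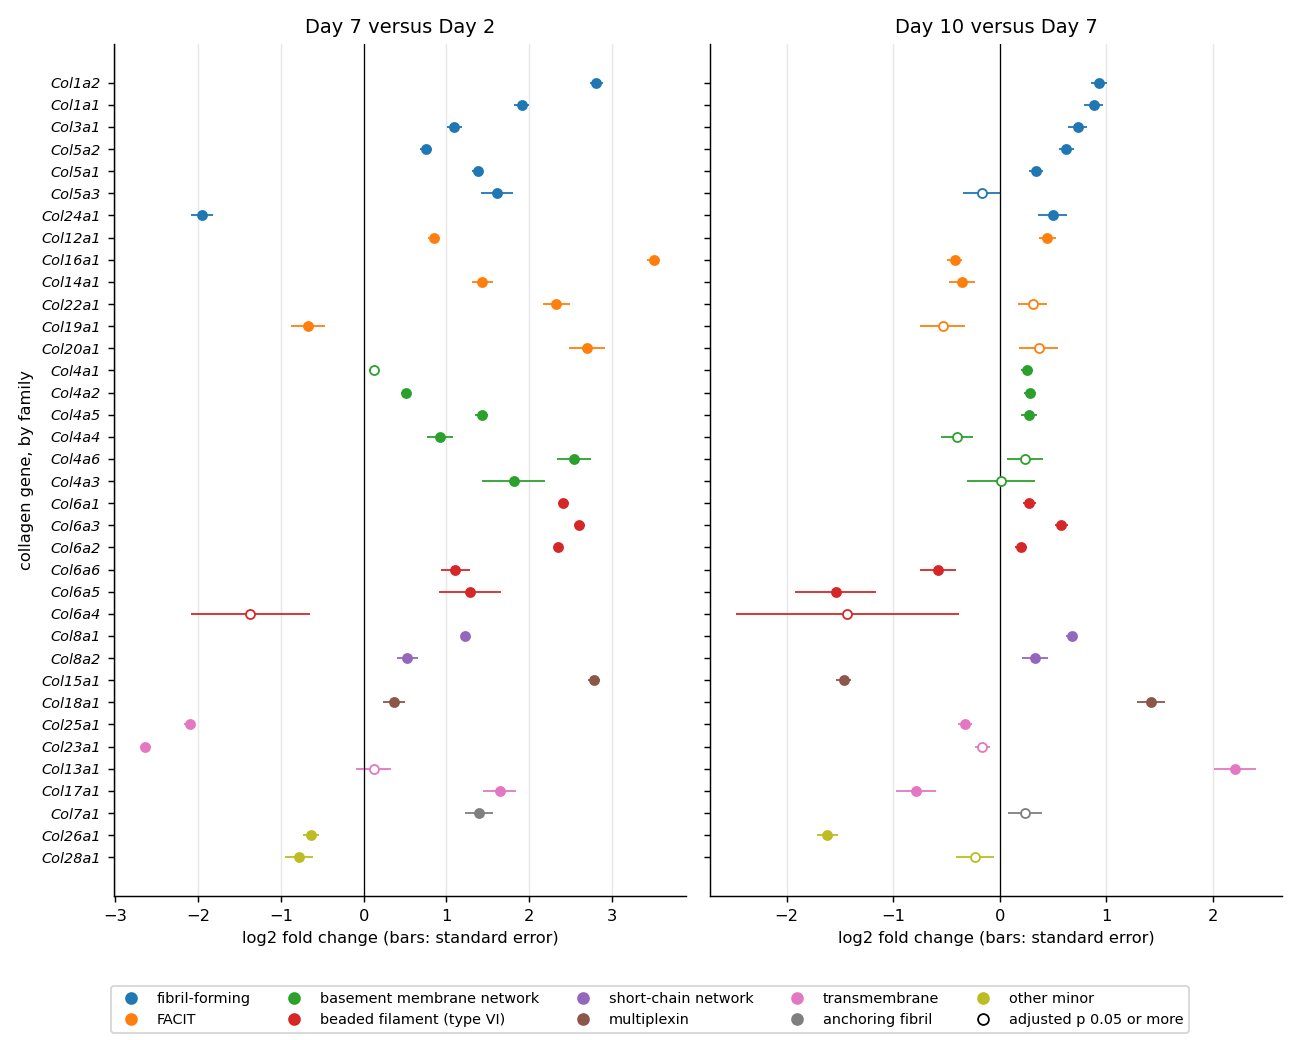
Log2 fold change of each of the 36 collagens from Day 2 to Day 7 (left) and from Day 7 to Day 10 (right), with bars for the standard error, colors for the families and open circles where the adjusted p was 0.05 or more. On the left 27 of 36 lie past the test on the higher side, and on the right 17.

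The fibril-forming collagens held the highest levels. Of the 7, 6 rose and 1 fell from Day 2 to Day 7, and 6 rose and none fell from Day 7 to Day 10. *Col1a2* (ENSMUSG00000029661, chr6:4504814-4541544, plus strand), a chain of type I collagen, stood at 303 and 302 CPM on Day 2, 2173 and 2062 on Day 7, and 4211 and 3863 on Day 10. It rose from Day 2 to Day 7 (log2 fold change 2.81 ± 0.08, adjusted p = 1.5e-08) and again to Day 10 (log2 fold change 0.93 ± 0.07, adjusted p = 4e-05), with no overlap between days. *Col1a1* (ENSMUSG00000001506, chr11:94936224-94953042, plus strand), its partner chain, stood at 505 and 524 CPM on Day 2, 1997 and 1873 on Day 7, and 3824 and 3305 on Day 10. Its change was smaller than that of *Col1a2* up to Day 7 (log2 fold change 1.91 ± 0.09, adjusted p = 2.2e-07) and close to it afterwards (log2 fold change 0.88 ± 0.09, adjusted p = 0.00011). *Col1a1* was the higher of the pair on Day 2 and the lower in all 4 later libraries.

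*Col3a1*, the chain of type III collagen found in pliable connective tissue, stood at 203 and 229.8 CPM on Day 2, 477 and 448 on Day 7, and 827 and 709 on Day 10 (log2 fold changes 1.09 ± 0.09 and 0.73 ± 0.09, adjusted p = 7.8e-06 and 0.00032). *Col5a2*, a chain of the type V collagen that starts and limits the width of type I fibrils, stood at 248 and 254 CPM on Day 2, 439 and 406 on Day 7, and 682 and 620.4 on Day 10. Both rose at each step, *Col5a2* by 0.75 ± 0.07 and 0.62 ± 0.07 on the log2 scale. *Col5a1*, the other main type V chain, stood at 88.3 and 85.9 CPM on Day 2, 237 and 216 on Day 7, and 299.9 and 275 on Day 10, with 1.38 ± 0.07 to Day 7 and 0.34 ± 0.07 to Day 10. The rise of *Col5a1* was thus mostly before Day 7, and that of *Col5a2* was spread over both steps. *Col5a3*, a minor type V chain, stayed at 5.95 CPM or less, rose from Day 2 to Day 7 (log2 fold change 1.61 ± 0.19, adjusted p = 7.1e-05) and did not pass the test afterwards (-0.17 ± 0.18). *Col24a1*, a fibril-forming chain described in developing bone, was the family member that fell from Day 2 to Day 7, from 3.65 and 4.32 CPM to 0.946 and 1.11 (log2 fold change -1.95 ± 0.13, adjusted p = 2.2e-06), before it rose to 1.37 and 1.53 CPM on Day 10 (log2 fold change 0.50 ± 0.14, adjusted p = 0.015).

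Among the 6 FACIT collagens in the files, 5 rose and 1 fell from Day 2 to Day 7, and 1 rose and 2 fell from Day 7 to Day 10. *Col12a1*, which binds type I fibrils in dense connective tissue, was the most abundant, at 205 and 190.5 CPM on Day 2, 380.4 and 333 on Day 7, and 501 and 471 on Day 10. It rose at each step (log2 fold changes 0.85 ± 0.08 and 0.45 ± 0.08). *Col16a1*, a FACIT chain found in skin and cartilage, had the largest change of all 36 genes from Day 2 to Day 7, and stood at 12.1 and 13.2 CPM on Day 2, 148 and 139 on Day 7, and 113 and 101 on Day 10. Its rise (log2 fold change 3.50 ± 0.08, adjusted p = 5.7e-09) was followed by a smaller fall (log2 fold change -0.42 ± 0.07, adjusted p = 0.0015). *Col14a1*, a fibril-associated chain of tendon and skin, took the same course at 32.7 and 23.6 CPM on Day 2, 75.2 and 76.9 on Day 7, and 62 and 56.9 on Day 10, up by 1.43 ± 0.13 and then down by 0.36 on the log2 scale (adjusted p = 0.04). *Col22a1* (0.400 to 2.49 CPM in the daily means), which lies at tissue junctions such as that of muscle with tendon, and *Col20a1* (0.175 to 1.46 CPM) rose to Day 7 and did not pass the test afterwards. *Col19a1* (2.35, 1.48 and 1.02 CPM), known from muscle, fell to Day 7 (log2 fold change -0.67 ± 0.21, adjusted p = 0.018).

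Of the 6 type IV chains of basement membrane, 5 rose from Day 2 to Day 7 and 3 from Day 7 to Day 10, and none fell. Of the main pair, *Col4a1* stood at 105 and 101 CPM on Day 2, 117 and 107 on Day 7, and 132 and 135 on Day 10, and its step to Day 7 did not pass the test (log2 fold change 0.12 ± 0.06, adjusted p = 0.081). With library totals alone that step turned to -0.16 with an adjusted p of 0.036. *Col4a2* stood at 72.6 and 71.2 CPM on Day 2, 107 and 98.1 on Day 7, and 125 and 124 on Day 10 and rose at each step, by 0.51 ± 0.05 and 0.29 ± 0.05. *Col4a5*, a chain of a more restricted basement membrane network, rose from 5.44 and 4.77 CPM on Day 2 to 14.0 and 13.5 on Day 7 (log2 fold change 1.43 ± 0.08, adjusted p = 5.7e-07) and to 17.4 and 15.9 on Day 10. *Col4a3*, *Col4a4* and *Col4a6* had daily means of 0.0494 to 2.29 CPM, rose to Day 7 and did not pass the test afterwards.

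The type VI chains of the beaded filament rose together from Day 2 to Day 7, with 5 of 6 called higher. *Col6a1* stood at 30.9 and 28.4 CPM on Day 2, 158 and 158 on Day 7, and 199 and 185 on Day 10, *Col6a2* at 18.7 and 19.2 CPM on Day 2, 95.3 and 98.7 on Day 7, and 116 and 107 on Day 10, and *Col6a3* at 14.2 and 14.7 CPM on Day 2, 88 and 88 on Day 7, and 139 and 124 on Day 10. These are the chains of the common type VI trimer, and their log2 fold changes to Day 7 were 2.41 ± 0.06, 2.35 ± 0.06 and 2.61 ± 0.07. To Day 10 they were 0.28 ± 0.06, 0.20 ± 0.05 and 0.58 ± 0.06, all past the test (adjusted p = 0.0046, 0.013 and 0.00016). Of the alternative chains, *Col6a5* and *Col6a6* rose to Day 7 and fell to Day 10, all at 1.03 CPM or less in each library, and *Col6a4*, counted at 0.0492 CPM or less in each library, did not pass in either comparison.

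The short-chain pair of type VIII, found beneath endothelia and in connective tissue, rose at both steps. *Col8a1* stood at 43.4 and 44.7 CPM on Day 2, 99.8 and 106 on Day 7, and 164 and 165 on Day 10 (log2 fold changes 1.22 ± 0.05 and 0.67 ± 0.05), and *Col8a2* at 30.2 and 36.5 CPM on Day 2, 51 and 45.4 on Day 7, and 67.9 and 53.4 on Day 10 (0.53 ± 0.12 and 0.33 ± 0.12, the second step with an adjusted p of 0.0496). The multiplexins parted after Day 7. *Col15a1* stood at 2.48 and 2.42 CPM on Day 2, 16.7 and 17.1 on Day 7, and 5.79 and 6.47 on Day 10, rising (log2 fold change 2.79 ± 0.07, adjusted p = 1.1e-08) and then falling (log2 fold change -1.46 ± 0.07, adjusted p = 4.9e-06). *Col18a1*, whose end fragment is endostatin, stood at 4.79 and 4.13 CPM on Day 2, 6.05 and 5.46 on Day 7, and 13.2 and 17.6 on Day 10, and most of its rise lay after Day 7 (log2 fold change 1.42 ± 0.13, adjusted p = 8.5e-05). In the same step the 8 immune markers summed to 55.5 and 71.0 CPM on Day 7 and 160 and 223 on Day 10, with 8 of 8 called higher and none at 0, and the 4 markers of the *Wnt10a* and *Cd34* cells to 28.8 and 29.5 and then 85.2 and 72.8 CPM, with 3 of 4 called higher. Their part in the *Col18a1* level was not tested.

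Besides *Col19a1* and *Col24a1*, the members that fell from Day 2 to Day 7 were *Col23a1*, *Col25a1*, *Col26a1* and *Col28a1*. Of the 4 transmembrane collagens, 1 rose and 2 fell in each comparison. *Col25a1*, which is needed for motor nerves to enter muscle, stood at 36.9 and 34.3 CPM on Day 2, 8.61 and 8.01 on Day 7, and 6.82 and 6.44 on Day 10 (log2 fold changes -2.10 ± 0.06 and -0.32 ± 0.07, adjusted p = 2.4e-08 and 0.0037). *Col23a1* stood at 26.3 and 27.7 CPM on Day 2, 4.44 and 4.25 on Day 7, and 3.7 and 4.07 on Day 10, and its fall to Day 7 (log2 fold change -2.64 ± 0.07, adjusted p = 1e-08) was the largest among the 36. *Col26a1*, a short chain first cloned from reproductive tissue, fell at both steps and stood at 38.2 and 36 CPM on Day 2, 21.3 and 26.6 on Day 7, and 8.15 and 7.47 on Day 10 (-0.63 ± 0.10 and -1.62 ± 0.10). Each of these 3 had all Day 2 libraries above all later ones. The 6 myocyte markers also fell, from sums of 477 and 361 CPM on Day 2 to 53.0 and 22.9 on Day 7 and 3.44 and 8.91 on Day 10, with 6 of 6 called lower in each comparison and none at 0. To Day 7 the 6 interdigital mesenchyme markers fell from sums of 206 and 202 CPM to 98.2 and 91.4 and the 6 joint interzone markers from 817 and 724 to 302 and 317, each with 6 of 6 called lower, as were the 4 dividing cell markers (706 and 758 to 334 and 329.7) and the 5 erythrocyte markers (53.9 and 127 to 0.0102 and 0.00538). The sum of the 9 chondrocyte markers went from 884 and 955 to 7022 and 6785 CPM, with 8 called higher and 0 lower. The part of these cell types in the falls was not tested. *Col13a1*, a transmembrane chain of muscle junctions and bone, was flat at first (0.671 and 0.708, then 0.660 and 0.839 CPM) and rose to 2.84 and 4.10 CPM on Day 10 (log2 fold change 2.21 ± 0.20, adjusted p = 6.8e-05). *Col17a1*, of the hemidesmosome, stayed at 0.686 CPM or less, rising and then falling. *Col7a1*, the anchoring fibril chain, rose from 1.58 and 1.06 CPM to 3.44 and 3.52 on Day 7 (log2 fold change 1.39 ± 0.17, adjusted p = 8.6e-05). *Col28a1*, a chain of peripheral nerve, fell from 0.900 and 0.836 CPM to 0.532 and 0.479 (log2 fold change -0.78 ± 0.17, adjusted p = 0.0031).

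The ratio between chains of the same protein does not depend on how a library was scaled. *Col1a1* over *Col1a2* was 1.67 and 1.73 in the Day 2 libraries, 0.919 and 0.908 on Day 7, and 0.908 and 0.856 on Day 10. The Day 2 libraries thus lay apart from the other 4, while those of Day 7 and Day 10 lay next to each other. A ratio over a whole library mixes the cell classes described below. On Day 2, contractile mesenchyme-like cells held 57369 and 43631 *Col1a1* UMIs beside 20202 and 13637 of *Col1a2*. Perichondrium-like cells held 20862 and 19045 beside 20834 and 18801. *Col4a1* over *Col4a2* went from 1.44 and 1.42 to 1.10 and 1.09 and then 1.06 and 1.09. *Col6a1* over *Col6a2* stayed between 1.48 and 1.72 in all 6 libraries, although the fitted folds to Day 7 were 5.33 and 5.11. *Col6a3* over *Col6a1* went from 0.459 and 0.518 through 0.556 and 0.557 to 0.699 and 0.668. *Col5a1* over *Col5a2* was highest on Day 7, at 0.540 and 0.532, against 0.356 and 0.339 on Day 2 and 0.440 and 0.443 on Day 10. *Col8a1* over *Col8a2* was 1.44 and 1.22, then 1.96 and 2.33, then 2.41 and 3.08. Against the main cartilage collagen, *Col1a2* over *Col2a1* was 0.552 and 0.498, fell to 0.234 and 0.242, and reached 0.706 and 0.723 on Day 10. A ratio of UMIs is not a ratio of protein chains, and these ratios are given as descriptions with no test.

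**Figure D3:**
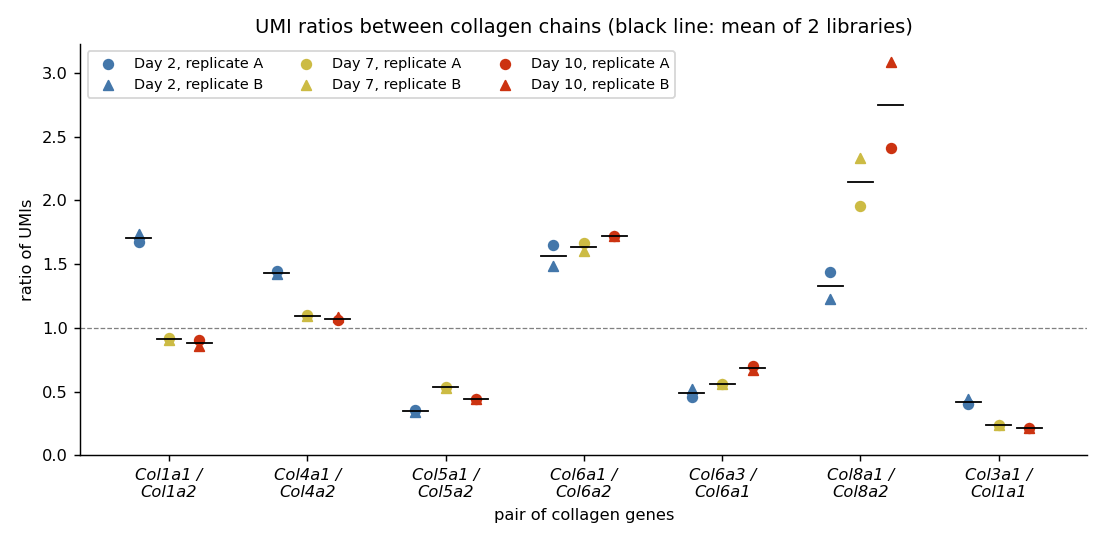
Ratio of UMIs between pairs of collagen genes in each library (circle, replicate A; triangle, replicate B), with a black line at the mean of the 2 libraries of a day and a dashed line at 1. The *Col1a1* to *Col1a2* ratio lies at 1.67 and 1.73 on Day 2 and below 1 in all 4 later libraries.

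Chains are hydroxylated, folded, exported, trimmed and crosslinked before they function, and 44 genes of these steps and of collagen receptors were read beside the collagens. From Day 2 to Day 7, 41 of the 44 rose and 2 fell, and from Day 7 to Day 10, 12 rose and 17 fell, against the same backgrounds of 35.7% and 34.6%, and 26.3% and 25.9%. All 15 hydroxylation and glycosylation genes rose in the first step, and 3 rose and 8 fell in the second. The 9 folding and export genes all rose and then 3 rose and 2 fell, the 8 propeptide removal genes gave 7 higher and 1 lower and then 3 higher and 4 lower, the 5 lysyl oxidases all rose and then 2 rose and none fell, and the 7 receptors gave 5 higher and 1 lower and then 1 higher and 3 lower. The largest rises to Day 7 were those of *Loxl4*, a crosslinking enzyme (log2 fold change 5.19 ± 0.13, adjusted p = 7.5e-09), *Itga10*, a collagen-binding integrin chain (4.80 ± 0.11), and *Colgalt2*, a collagen galactosyltransferase (3.50 ± 0.15). In the cell clusters described below, *Itga10* was a leading gene of a Day 7 chondrocyte-like cluster, and *Loxl4* of one drawn at a higher resolution. The part of cartilage cells in these rises was not tested. *Itgb1*, the shared integrin partner chain, was the gene at 10 CPM or more that fell (-0.24 ± 0.06, adjusted p = 0.007). To Day 10 the largest rises were those of *Creb3l1*, a transcription factor of collagen-secreting cells (1.01 ± 0.07), *P3h2*, a prolyl hydroxylase (0.74 ± 0.08), and *Pcolce*, which speeds propeptide removal (0.72 ± 0.06). The largest falls were those of *Colgalt2* (-1.08 ± 0.12), *Plod2*, a lysyl hydroxylase (-0.97 ± 0.08), and *Itga1*, an integrin chain (-0.81 ± 0.07). The 8 cartilage collagens themselves all rose and then 1 rose and 7 fell, with median log2 fold changes of 3.30 and -0.75, beside 1.25 and 0.25 for the 36 fibrous and minor collagens.

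Type I transcripts were found in more cells on the later days. With every cell thinned to 1000 UMIs, a *Col1a2* UMI was found in 25.1% (exact binomial 95% interval, 24.2% to 26.0%) and 25.5% (24.8% to 26.2%) of the cells on Day 2, 80.4% (79.8% to 81.1%) and 75.5% (74.7% to 76.2%) on Day 7, and 90.7% (90.2% to 91.3%) and 89.9% (89.3% to 90.5%) on Day 10. The share in cells that should not make a gene gives a floor for such shares. Free RNA was not measured and doublets were not removed, so the source of this floor was not tested. In immune-like cells, which should not make type I collagen, a *Col1a2* UMI was found in 1 of 20 and 0 of 8 cells on Day 2 (upper bounds 24.9% and 36.9%), in 53.6% and 25.6% of 28 and 43 cells on Day 7, and in 33.1% and 30.7% of 118 and 163 cells on Day 10, all below the share of all cells of that library. The immune-like cells had median depths of 17738 to 30437 UMIs before thinning, against 3871 to 24197 over all cells. For *Col1a1* the shares of all cells were 31.8% and 46.5%, 74.3% and 68.7%, and 85.3% and 83.0%, and those of immune-like cells 0 of 20 and 0 of 8, 32.1% and 18.6%, and 33.1% and 30.1%. Both intervals and floors cover counting error only. Without thinning, the *Col1a1* shares were 81.3% and 81.8% on Day 2 and 97.6% or more later, and the *Col1a2* shares 83.3% and 64.0% and then 98.4% or more. With cells thinned to 3000 UMIs the Day 2 shares were 57.1% and 69.7% for *Col1a1* and 51.3% and 54.7% for *Col1a2*. Cells with fewer than 1000 UMIs were left out by the thinning, which kept 9328 of 9448 cells of Day 2 replicate A, 10180 of 10385 of Day 10 replicate A, 9828 of 9949 of Day 10 replicate B, and all cells of the other 3 libraries.

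The gene of the partner chain was found in the same cells more often as the cultures aged. Among cells thinned to 3000 UMIs, the Pearson correlation between *Col1a1* and *Col1a2* UMIs across the 8802 to 9653 cells of a library was 0.30 and 0.24 on Day 2, 0.83 and 0.79 on Day 7 and 0.85 and 0.84 on Day 10. Cells with a UMI of both were 33.7% and 41.3%, then 77.9% and 75.8%, then 91.5% and 90.6%. The correlation between *Col1a1* and *Col3a1* was 0.22 and 0.16, 0.56 and 0.50, and 0.63 and 0.55. *Col5a1* with *Col5a2* gave 0.21 and 0.14, 0.36 and 0.28, and 0.42 and 0.38. The pairs *Col4a1* and *Col4a2*, *Col6a1* and *Col6a2*, *Col6a1* and *Col6a3*, and *Col8a1* and *Col8a2* stayed at 0.30 or less, where few cells held a UMI of both. These are descriptions: cells of a library share its free RNA, levels rose over the same days, and a higher level alone raises such a correlation. The 10% of cells with the most *Col1a1* held 43.4% and 35.3% of its UMIs on Day 2, 44.3% and 40.6% on Day 7 and 37.8% and 35.7% on Day 10.

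To place the collagens among cell types, clusters were rebuilt for each day from genes that left out every collagen, and named from marker lists without collagens. The names are rebuilt ones, and unnamed clusters held 19.1% and 38.5% of the cells on Day 2, 32.2% and 21.6% on Day 7 and 29.5% and 31.4% on Day 10. A level in a class is given below in CPM of the UMIs of that class, without TMM scaling, for replicates A and B, as a description with no test. Classes were ranked among the named ones with at least 20 cells in both libraries of a day, so unnamed clusters were left out. At Day 2, the contractile mesenchyme-like cells (*Cnn1*, *Tagln*, *Acta2*) had the highest level of 9 of the 21 collagens. The perichondrium-like cells (*Thbs2*, *Fbn2*, *Aspn*) had that of 5. At Day 7 the perichondrium-like cells led for 14 and on Day 10 for 16. Among these leads, replicates overlapped the next class for *Col15a1* on Day 7 and for *Col6a1*, *Col6a3*, *Col8a1*, *Col16a1* and *Col23a1* on Day 10. Among the Day 2 leads of contractile mesenchyme-like cells they overlapped for *Col4a1* and *Col18a1*. The share of all genes that each class led was not counted, so these counts have no background beside them. The perichondrium-like cells were 3.73% and 3.18% of the Day 7 libraries and 8.08% and 8.60% of the Day 10 libraries. They were shallow, with median UMIs of 7086 and 6547, and 5854 and 4744. On both days they were named from *Thbs2*, *Fbn1*, *Fbn2*, *Postn* and *Aspn*. Of the 10 leading genes of the Day 7 cells, *Fbn2* was a marker on that list and *Dtl*, *Ncapg2*, *Kif15* and *Hjurp* are genes of DNA replication and cell division, whose part in these levels was not tested. This class depended on the cluster resolution. At neither a resolution scaled by 0.5 nor one scaled by 2 was any Day 2 or Day 10 cluster perichondrium-like, and on Day 7 the class grew from 503 and 392 cells to 1832 and 1702 or to 1043 and 908 cells and led for 12 or 10 collagens. On Day 10, bone-like cells led for 9 and contractile mesenchyme-like cells for 6 at the first of these resolutions. At the second, joint interzone-like cells led for 8 and bone-like cells for 5. On Day 2, contractile mesenchyme-like cells led for 9 and chondrocyte-like cells for 7 at the first, and for 12 and 3 at the second. The Day 2 chondrocyte-like cells went from 1798 and 1737 to 3342 and 2820, and to 2503 and 2360. At the second, a Day 2 chondrocyte-like cluster had *Wnt4*, *Pkdcc* and *Dipk1c* among its leading genes, as had the perichondrium-like cluster used here. How many cells passed between these classes was not counted. Levels of perichondrium-like cells on Day 2 and Day 10 thus hold for 1 clustering.

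*Col1a1* in perichondrium-like cells was 490.4 and 532 CPM on Day 2, 11310.0 and 8761 on Day 7 and 15640.0 and 10560.0 on Day 10, and *Col1a2* was 489.7 and 525, 8394 and 6419 and 12960.0 and 9821. The next highest class was tenocyte-like on Day 7 (*Col1a1* 3514 and 3860.0 CPM) and bone-like on Day 10 (7330.0 and 7924 CPM), neither of which overlapped the perichondrium-like replicates. On Day 2 the class did not lead for *Col1a1*, with 1015 and 1003 CPM in contractile mesenchyme-like and 520.5 and 520.6 in chondrocyte-like cells. The Day 2 class was named from *Thbs2*, *Fbn2* and *Aspn* alone, without *Fbn1* and *Postn*. Whether it held the same kind of cell as the later classes was not tested. Chondrocyte-like cells lay among the lowest classes on the later days. They still had 856 and 580.3 CPM of *Col1a1* on Day 7 and 1369 and 1275 on Day 10, against 1103 and 546 and 832 and 923 in immune-like cells. At these levels the *Col1a1* in chondrocyte-like cells on Day 7 could not be set apart from the immune-like background. *Col3a1* was highest in perichondrium-like cells on each day, followed on Day 10 by joint interzone-like cells (1564 and 1555 CPM). *Col12a1* reached 1887 and 1420.0 CPM in perichondrium-like cells on Day 7, and the next class, contractile mesenchyme-like, had 523 and 488. Although highest per UMI, the perichondrium-like cells gave 10.5% and 7.75% of the *Col1a1* UMIs of the Day 10 libraries, beside 22.4% and 22.1% from the more numerous contractile mesenchyme-like cells and 29.4% and 29.1% from unnamed clusters.

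**Figure D4:**
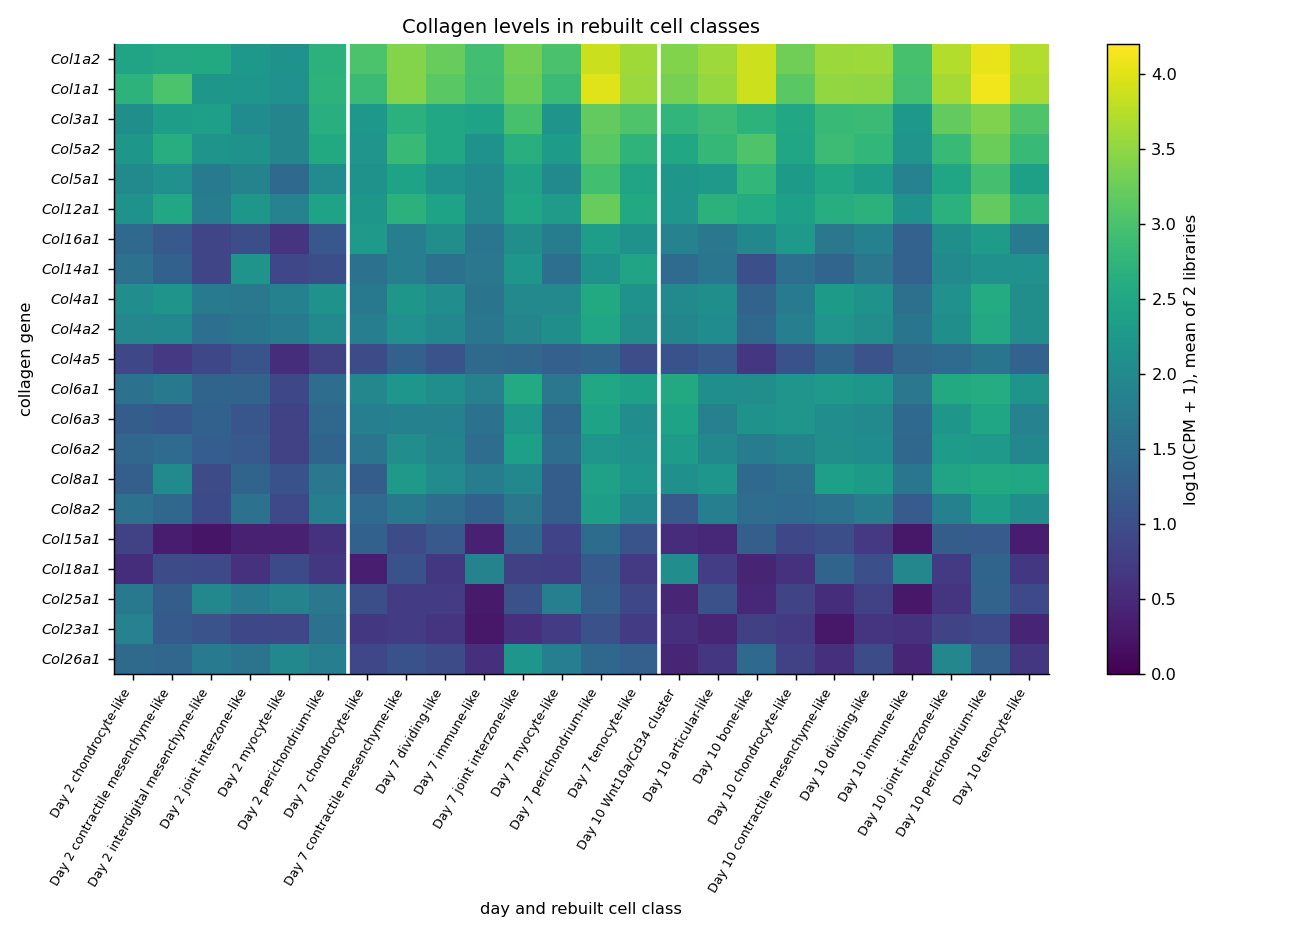
Level of the 21 collagens that reached 10 CPM in each named class with at least 20 cells in both libraries of a day, as log10 of CPM plus 1, mean of 2 libraries, with white lines between days. Type I and III chains are brightest in the perichondrium-like classes of Day 7 and Day 10, and *Col18a1* stands out in immune-like cells and the *Wnt10a* and *Cd34* cluster.

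Several minor collagens had their highest level in small classes. At Day 10, *Col13a1* was 94.1 and 119 CPM in bone-like cells (*Sp7*, *Ibsp*, *Ifitm5*), and the next class, dividing-like cells, had 1.44 and 3.83. Bone-like cells were 1.49% and 1.58% of the cells and gave 73.4% and 68.9% of the *Col13a1* UMIs, which were 696 and 911 UMIs in all. *Col22a1* was 48.6 and 62.5 CPM in the same cells, with 46.7% and 55.6% of its UMIs, and *Col24a1* was 18.6 and 21.2 CPM, with 30.1% and 32.9%. The 7 bone markers summed to 82.1 and 79.5 CPM on Day 7 and 737 and 978 on Day 10, with 7 of 7 called higher. *Col18a1* on Day 10 was highest in the *Wnt10a* and *Cd34* cluster (81.2 and 144 CPM) and in immune-like cells (75.2 and 97.7 CPM), whose replicates overlapped, while chondrocyte-like cells had 2.96 and 3.13. By UMIs, *Col18a1* was not confined to these cells: the *Wnt10a* and *Cd34* cluster gave 13.7% and 42.4% of its UMIs on Day 10 and immune-like cells 6.77% and 9.73%, beside 46.2% and 24.9% from contractile mesenchyme-like cells. *Col19a1* on Day 2 was 57 and 34.1 CPM in myocyte-like cells and at most 0.942 CPM in the next class. Myocyte-like cells gave 86.7% and 75.6% of its UMIs. They were 340 and 892 cells, unlike in depth, with medians of 27096.5 and 2883.5 UMIs. Of them, 23 and 702 came from a shallow cluster, with medians of 2642 and 2424.5 UMIs. The same class gave the Day 2 myocyte-like levels of *Col25a1* and *Col26a1* below. Later most *Col19a1* UMIs came from the more numerous chondrocyte-like cells. They gave 64.9% and 64.6% on Day 7 and 69.0% and 56.5% on Day 10. Myocyte-like cells, 83 and 58 on Day 7, gave 17.3% and 8.30% on that day (58 and 19 UMIs). Their level was still the highest of that day, at 66.8 and 105 CPM against 1.455 and 2.92 in perichondrium-like cells. Within chondrocyte-like cells *Col19a1* was called higher from Day 2 to Day 7 (log2 fold change 1.88), whereas it fell in whole libraries.

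Joint interzone-like cells (*Gdf5* and *Osr2* on Day 2 and Day 7, and *Ebf1*, *Jun* and *Sfrp2* on Day 10) carried the highest *Col14a1* on Day 2, at 161 and 131 CPM, and the highest *Col26a1* later, at 143 and 178 CPM on Day 7 and 63.7 and 113 on Day 10, with 50.8% and 62.3% of all *Col26a1* UMIs on Day 7. Tenocyte-like cells carried the highest *Col14a1* on Day 7 (264 and 295 CPM). At Day 10 they still ranked first of the named classes (135 and 130.2 CPM). Their replicates overlapped those of perichondrium-like cells (152 and 112 CPM). Unnamed clusters gave 40.7% and 42.6% of the *Col14a1* UMIs on that day. *Col6a1* was alike in joint interzone-like (359.7 and 368 CPM) and perichondrium-like cells (364 and 274 CPM) on Day 7, and their replicates overlapped. Of the collagens that were highest on Day 2, *Col23a1* was 75.2 and 69.6 CPM in chondrocyte-like cells, *Col25a1* was 99.1 and 83.5 CPM in interdigital mesenchyme-like cells (*Msx1*, *Hoxa13*) and 74.5 and 72.4 in myocyte-like cells, and *Col26a1* was 101 and 79.2 CPM in myocyte-like and 62.4 and 62.2 in perichondrium-like cells. *Col16a1* on Day 7 was 249 and 203 CPM in perichondrium-like and 191 and 178 in chondrocyte-like cells, against 59.5 and 61.4 in contractile mesenchyme-like and 51.3 and 36.7 in immune-like cells. Chondrocyte-like cells gave 59.4% and 57.7% of its UMIs.

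Changes between days were then tested within a class, on UMIs summed per library over its cells. This takes the share of the class out of the comparison, but not the free RNA of the library. The part of free RNA in the counts below was not tested. On Day 7, *Col5a2* held 15395 and 11768 of the 89819494 and 83821953 UMIs of chondrocyte-like cells. In immune-like cells its level was 170 and 103 CPM without TMM scaling. Levels in the next paragraphs are CPM of the class after TMM scaling. In chondrocyte-like cells (1737 to 4867 cells per library), 21 of the 33 collagens tested rose and 7 fell from Day 2 to Day 7, with 36% of 16254 genes higher and 34.7% lower, and 16 rose and 5 fell to Day 10, with 22% higher and 22.4% lower. In contractile mesenchyme-like cells (1424 to 4879 cells), 24 of 33 rose and 4 fell to Day 7, with 30.8% and 29.5% of all genes, and 9 rose and 7 fell to Day 10, with 16.6% and 17.7%. The 9 higher in contractile mesenchyme-like cells to Day 10 became 0 of the 23 tested when the clusters were drawn at a higher resolution (edgeR, with 0 at an unadjusted p under 0.05), 3 without Day 7 replicate A, Day 7 replicate B or Day 10 replicate A, and 4 without Day 10 replicate B. At that resolution the contractile mesenchyme-like cells of Day 7 and Day 10 were 346 and 435 and 88 and 53 cells, with median UMIs of 1948 to 6765. Fewer collagens were also called higher to Day 7 there, as counted at the end of the report. In tenocyte-like cells (485 to 653 cells), which could be tested only from Day 7 to Day 10, 9 of 27 rose and 12 fell, with 28.7% of all genes in each direction. The chondrocyte-like and contractile mesenchyme-like classes joined clusters of unlike depth. A Day 2 chondrocyte-like cluster of 451 and 696 cells had median UMIs of 2843 and 3228 and was led mostly by mitochondrial genes. Day 7 chondrocyte-like clusters of 1242 and 1342 and of 1017 and 1141 cells had medians of 4353 to 5409. They held noncoding RNAs among their leading genes, *Xist* and *Tsix* in the first and *Kcnq1ot1* in the second. The part of this depth and RNA makeup in the changes was not tested beyond what follows. With clusters under a median of 10000 UMIs in both libraries left out, a choice made after seeing the data, 20 collagens rose and 8 fell to Day 7 and 19 rose and 4 fell to Day 10 in chondrocyte-like cells. This kept 1685 and 1378 of the 2718 and 2605 chondrocyte-like cells of Day 10. The shares over all genes in that fit were not counted. *Col18a1* then went from -0.52 to 0.16 to Day 7 (adjusted p = 0.51), *Col1a1* from 0.94 to 0.30 (adjusted p = 0.001) and *Col14a1* from 0.44 to 0.05 (adjusted p = 0.72), and *Col8a2* and *Col4a2* were called lower (-0.44 and -0.20). To Day 10 the rises of *Col1a1*, *Col8a1* and *Col12a1* grew to 1.43, 1.54 and 0.88, and *Col8a2* and *Col4a1* were called higher (0.40 and 0.20). The contractile mesenchyme-like cells of Day 2 replicate B were shallow, with a median of 3693 UMIs against 30839 in replicate A. A Day 2 cluster of this class held 102 and 2659 cells, with medians of 13679.5 and 2881 UMIs. It was enriched for *Cnn1*, *Tagln* and *Myl9* of the marker list, and not for *Acta2*. The limit of 10000 UMIs left all 1688 and 4879 Day 2 cells of the class in place. A Day 7 cluster of the class held 332 and 502 cells, with medians of 1770 and 1738 UMIs. With library totals in place of TMM factors, the median of all genes moved by -0.47 in chondrocyte-like cells to Day 7, the share of their calls that were higher went from 51.0% to 24.7%, and *Col5a2*, *Col8a1* and *Col14a1* lost their calls and changed sign there. *Col4a5* also lost its call (0.66 to 0.18, adjusted p = 0.18), while *Col4a2* went from -0.02 to -0.49 (adjusted p = 4.4e-05) and *Col8a2* from 0.074 to -0.40 (adjusted p = 0.002), both then called lower. The same share went from 49.6% to 63.6% in these cells to Day 10, with a shift of 0.08, and from 51.1% to 36.7% in contractile mesenchyme-like cells to Day 7, with a shift of -0.17.

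The UMI level of the type I chains rose within each class tested at the resolution used here. In chondrocyte-like cells *Col1a2* was 224 and 233 CPM on Day 2 and 1287 and 1083 on Day 7 (2.38 ± 0.09, adjusted p = 2.1e-12) and 2199.6 and 2033 on Day 10 (a further 0.84 on the log2 scale). Without TMM scaling the Day 7 level was 1136 and 949 CPM, beside 1132 and 566 in immune-like cells, so the Day 7 level and the rise to it could not be set apart from that background. On Day 10 it was 2018 and 1913 CPM against 918 and 955. In contractile mesenchyme-like cells it was 335 and 283 CPM on Day 2 and 2723 and 2707 on Day 7 (3.14 ± 0.11, adjusted p = 2.1e-07), with a further 0.50 to Day 10. In tenocyte-like cells it was 3914 and 4097 CPM on Day 7 and 5339.7 and 5244 on Day 10 (0.40 ± 0.04, adjusted p = 5e-06). *Col1a1* likewise rose by 0.80, 0.37 and 0.37 from Day 7 to Day 10 in the chondrocyte-, contractile mesenchyme- and tenocyte-like cells. At the resolution scaled by 2 the Day 10 changes in contractile mesenchyme-like cells were -0.29 for *Col1a2* (adjusted p = 0.18) and -0.22 for *Col1a1* (adjusted p = 0.31). *Col4a1*, whose level in whole libraries moved little to Day 7, fell in chondrocyte-like cells (92.7 and 93.5 CPM on Day 2 and 61.7 and 48.9 on Day 7; -0.75 ± 0.08, adjusted p = 1e-06) and rose in contractile mesenchyme-like cells (141 and 127 CPM on Day 2 and 175 and 174 on Day 7; 0.38 ± 0.08, adjusted p = 0.0035), the latter by 0.21 with library totals alone (adjusted p = 0.033), while at the resolution scaled by 2 it was -0.05 (adjusted p = 0.81). *Col23a1* fell in chondrocyte-like cells from 61.8 and 56.6 CPM to 4.50 and 3.94 (-3.81 ± 0.10, adjusted p = 3.9e-14), and *Col26a1* fell in both classes to Day 7 (-1.50 and -0.99) and in all 3 to Day 10 (-0.34, -1.91 and -2.23 in chondrocyte-, contractile mesenchyme- and tenocyte-like cells). At the resolution scaled by 2 its Day 10 changes no longer passed in chondrocyte-like (-0.20, adjusted p = 0.099) and contractile mesenchyme-like cells (-1.66, adjusted p = 0.17).

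The type VI chains parted by class from Day 7 to Day 10. *Col6a3* was 76.2 and 67.8 CPM on Day 7 and 181 and 157 on Day 10 in chondrocyte-like cells (1.23 ± 0.08, adjusted p = 1.9e-08), 108 and 117 CPM on Day 7 and 78.8 and 66.9 on Day 10 in tenocyte-like cells (-0.63 ± 0.07, adjusted p = 9.4e-06), and 68.3 and 77.1 CPM on Day 7 and 127 and 112 on Day 10 in contractile mesenchyme-like cells (0.72 ± 0.09, adjusted p = 0.001). The last of these was -0.47 (adjusted p = 0.076) at the resolution scaled by 2. At the resolution used here it thus rose in both of the other classes and fell in the tenocyte-like cells, with no overlap of days in any. *Col6a1* and *Col6a2* took the same directions in chondrocyte-like cells (0.75 and 0.78) and tenocyte-like cells (-0.67 and -0.54), and did not pass in contractile mesenchyme-like cells (0.25 and 0.10). Tenocyte-like cells also lost *Col14a1* (261 and 292 CPM on Day 7 and 137 and 132 on Day 10; -1.04 ± 0.06, adjusted p = 1.2e-08), *Col15a1* (10.8 and 11.9 CPM on Day 7 and 1.2 and 1.05 on Day 10; -3.32 ± 0.20, adjusted p = 2e-08) and *Col16a1* (130.5 and 137 CPM on Day 7 and 55.3 and 49.4 on Day 10; -1.35 ± 0.07, adjusted p = 1.9e-09). They gained *Col8a1* (156 and 164 CPM on Day 7 and 312 and 336 on Day 10; 1.02 ± 0.06, adjusted p = 8.4e-09), *Col12a1* (0.64) and *Col4a5* (1.24). A Day 10 cluster of 928 and 911 cells, 8.94% and 9.16% of the libraries, had *Tnmd*, a tenocyte marker, among its leading genes and was left unnamed. With it added to the tenocyte-like cells, a choice made after seeing the data, *Col6a1*, *Col6a2* and *Col6a3* still fell (-0.35, -0.31 and -0.33), while *Col4a1* went from -0.24 to 0.06 and *Col23a1* from -1.32 to 0.48, and the changes of *Col16a1*, *Col26a1*, *Col8a1*, *Col4a5* and *Col1a1* shrank to -0.63, -0.43, 0.41, 0.68 and 0.20. *Col8a2* lost its call (0.34 to 0.16, adjusted p = 0.052), and *Col23a1*, *Col25a1* and *Col4a2* were then called higher (0.48, 0.38 and 0.27).

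**Figure D5:**
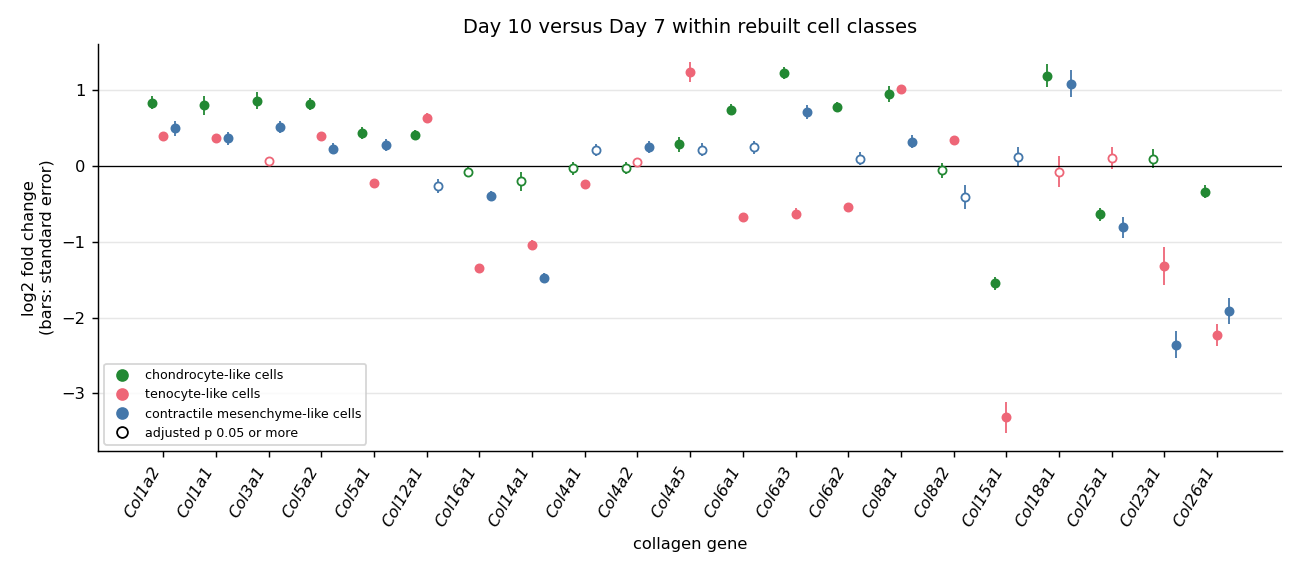
Log2 fold change of the 21 collagens from Day 7 to Day 10 within chondrocyte-like (green), tenocyte-like (red) and contractile mesenchyme-like cells (blue), with bars for the standard error and open circles where the adjusted p was 0.05 or more. The type VI chains lie above 0 in chondrocyte-like and below 0 in tenocyte-like cells.

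Whether a change differed between classes was tested itself, in a fit of both classes with the library as a block, which was chosen after seeing the data. From Day 7 to Day 10, 4 of 34 collagens changed more upward in tenocyte-like than in chondrocyte-like cells and 18 more downward, with 19.1% and 16.7% of all genes, and 9 of 33 more upward and 11 more downward in tenocyte-like than in contractile mesenchyme-like cells, with 22.4% and 12.4%. In contractile mesenchyme-like against chondrocyte-like cells, 19 of 33 changed more upward and 2 more downward to Day 7, with 21.6% and 19.5% of all genes, and 1 more upward and 17 more downward to Day 10, with 3.98% and 11.9%. The rise of *Col1a2* to Day 7 was larger in contractile mesenchyme-like than in chondrocyte-like cells by 0.78 ± 0.10, adjusted p = 8.5e-05, and that to Day 10 was smaller by 0.38 on the log2 scale (adjusted p = 0.024). The rise of *Col14a1* to Day 7 differed between the same classes by 1.43 ± 0.13, adjusted p = 5.9e-06. *Col16a1* ran the other way, with a larger rise in chondrocyte-like cells (-0.99 ± 0.09, adjusted p = 6.7e-06). From Day 7 to Day 10, *Col1a1* and *Col1a2* did not pass a test between tenocyte-like and contractile mesenchyme-like cells (0.05 ± 0.05 and -0.05 ± 0.05).

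Promoter sequence was read for the 29 of the 36 genes that the RefSeq table of GRCm38.p6 held, 250 bases before to 50 bases after each start. Searching both strands, CCAAT (the CCAAT box) was in 37.9% of the 29 genes and 41.1% of all genes in the table, TATAAA in 10.3% and 15.7%, and GGGCGG (the GC box) in 62.1% and 38.2%. Shown are 150 bases before the RefSeq start of *Col1a2* (chr6:4505468-4505617, plus strand), whose rise in CPM was the largest of the 36, and of *Col3a1* (chr1:45311388-45311537, plus strand), which also rose at each step. The RefSeq start of *Col1a2* lies inside the GENCODE span given above, which begins further upstream, so these bases are before the RefSeq start alone. Capitals mark a CCAAT 109 bases and a TATAAA 117 bases before the start.
Col1a2: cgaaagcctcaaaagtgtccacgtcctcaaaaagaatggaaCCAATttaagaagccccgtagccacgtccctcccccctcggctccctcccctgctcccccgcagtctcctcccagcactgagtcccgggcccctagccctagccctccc
Col3a1: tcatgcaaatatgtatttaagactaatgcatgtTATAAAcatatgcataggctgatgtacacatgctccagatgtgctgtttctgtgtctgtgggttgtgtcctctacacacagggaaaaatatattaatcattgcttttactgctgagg

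A motif match is a description of these letters and not a bound site. *Col4a1* and *Col4a2*, whose UMI ratio moved from 1.44 and 1.42 on Day 2 to 1.06 and 1.09 on Day 10, lie on opposite strands of chromosome 8 with starts 21 bases apart in the GENCODE annotation (chr8:11312826 and chr8:11312805). *Col4a5* and *Col4a6* are likewise on opposite strands of chromosome X, with starts 1343 bases apart in the RefSeq table. *Col4a5* rose from a daily mean of 5.11 to 16.6 CPM, whereas the daily mean of *Col4a6* went from 0.139 to 0.968 CPM.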

How the data were processed

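Per the study's methods, the authors aligned 3′ 10x reads to GRCm38 and deposited UMI counts per gene and barcode (Cell Ranger 6.1.2). Cells were kept by the study's filter, doublets were not removed, and UMIs were summed per library. The sums were tested with edgeR 4.0.16 (filterByExpr, TMM factors, quasi-likelihood test, all 6 libraries in 1 fit, common biological coefficient of variation 0.0689), with Benjamini-Hochberg adjustment. Clusters were drawn per day with Seurat 5.3.0 from 3000 features less any collagens and 35 dimensions, and named from marker lists by a rule set after their leading genes were seen. Collagens that reached 10 CPM on a day were named with the value in every library, the others by range. Of the processing genes, the 3 called with the largest change in each direction and 10 CPM were named. The members and lists were chosen with earlier results of these data known, and the tests between classes, library totals within classes and the enlarged tenocyte-like class were chosen after seeing the data. Alternatives were DESeq2 1.42.0, limma 3.58.1, other filters, resolutions, thresholds and left-out libraries. The scripts were tested on simulated data.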

Additional observations from a re-analysis of the deposited data

Results flagged for a closer look

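The changes of 7 collagens went in opposite directions, each past its own test, in different rebuilt classes, and the difference itself was past the test (edgeR, libraries as blocks, adjusted over all genes). From Day 7 to Day 10, the log2 change in tenocyte-like cells minus that in chondrocyte-like cells was -1.41 ± 0.06, adjusted p = 1.3e-11 for *Col6a1*, -1.31 ± 0.07, adjusted p = 5.4e-11 for *Col6a2* and -1.85 ± 0.08, adjusted p = 5.8e-12 for *Col6a3*, so that all 3 chains of the common type VI trimer were among them. It was -0.65 ± 0.07, adjusted p = 1.5e-06 for *Col5a1*. For *Col13a1* it was -5.17 ± 0.54, adjusted p = 8.2e-07, at levels of 0.115 to 2.06 CPM in these classes. With the unnamed *Tnmd* cluster added to the tenocyte-like cells, their own *Col13a1* change went from -3.10 to -1.08 (adjusted p = 0.027). Their falls of *Col6a1*, *Col6a2* and *Col6a3* shrank as well, to the values given above. The differences between classes were not refitted.

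Against contractile mesenchyme-like cells over the same days, the change in tenocyte-like cells minus the other was -1.31 ± 0.06, adjusted p = 3.9e-10 for *Col6a3* and -0.47 ± 0.05, adjusted p = 5.7e-06 for *Col5a1* (differences on the log2 scale). The rises of *Col6a3* and *Col5a1* in contractile mesenchyme-like cells (0.72 and 0.28) became -0.47 (adjusted p = 0.076) and -0.39 (adjusted p = 0.11) at the resolution scaled by 2, where the class was 346 and 435 cells on Day 7 and 88 and 53 on Day 10. From Day 2 to Day 7, the change in contractile mesenchyme-like cells exceeded that in chondrocyte-like cells by 1.15 ± 0.10, adjusted p = 3.4e-06 for *Col4a1*, the chain of basement membranes, and by 1.07 ± 0.20, adjusted p = 0.0013 for *Col18a1*. The *Col18a1* rise in contractile mesenchyme-like cells (0.53, adjusted p = 0.037) was no longer past the test with library totals alone (0.36, adjusted p = 0.12), and its fall in chondrocyte-like cells went from -0.52 to 0.16 (adjusted p = 0.51) with clusters under a median of 10000 UMIs left out. The Day 7 level of *Col4a1* in chondrocyte-like cells lay near that of immune-like cells. With library totals alone the rise of *Col4a1* went from 0.38 to 0.21 (adjusted p = 0.033). At the resolution scaled by 2 these rises were -0.05 for *Col4a1* (adjusted p = 0.81) and 0.54 for *Col18a1* (adjusted p = 0.12). These classes are rebuilt from clusters, and the part of their makeup in the differences was not tested.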

How the results depend on the processing

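Of 588 recomputed log2 fold changes of the 21 collagens of 10 CPM or more, 551 kept their direction and side of the threshold, 32 were no longer past it, 2 newly passed and 3 changed sign. With each cell weighted equally (limma), *Col18a1* to Day 7 became -0.10 (adjusted p = 0.59) and *Col23a1* to Day 10 became 0.083 (adjusted p = 0.63), and with library totals alone *Col4a1* to Day 7 became -0.16 (adjusted p = 0.036). That limma fit called 10 collagens higher and 3 lower from Day 7 to Day 10, in place of 17 and 8. With a log2 fold change of at least 1 also required, 3 were lower to Day 7, and 2 higher and 3 lower to Day 10. Leaving out each library in turn gave 4 to 10 lower from Day 7 to Day 10, with 4 without Day 7 replicate A or Day 10 replicate B.

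The shares over all genes were not counted for the other fits whose counts follow. Within chondrocyte-like cells, 12 were lower to Day 7 at a cluster resolution scaled by 0.5 in place of 7, and 3 lower to Day 10, in place of 5, at a higher resolution (scaled by 2) and with library totals alone. Leaving out each library gave 3 to 5 there, with 3 without Day 7 replicate A, Day 7 replicate B or Day 10 replicate A. Within contractile mesenchyme-like cells, 13 were higher to Day 7 at the higher resolution in place of 24, and 11 lower to Day 10 at the resolution scaled by 0.5 in place of 7. Those higher to Day 10, 9 in the report, were 0 of the 23 tested at the higher resolution (edgeR, with 0 at an unadjusted p under 0.05), and 3 to 13 with each library left out (3 without Day 7 replicate A, Day 7 replicate B or Day 10 replicate A, and 4 without Day 10 replicate B). At the resolution scaled by 0.5 no cluster was tenocyte-like, no Day 10 cluster was joint interzone-like, articular-like or perichondrium-like, and the bone-like cells of Day 10 went from 155 and 157 to 1138 and 1134. At the higher resolution no Day 2 or Day 10 cluster was perichondrium-like and no Day 10 cluster articular-like, and at the resolution scaled by 0.5 no Day 2 cluster was perichondrium-like. The members' percent of UMIs at Day 2 was 0.243% over all barcodes and 0.199% as a median over cells, and 0.687% by that median at Day 7. The cause of these shifts was not tested.

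The replicate letters did not pair the libraries: the correlations of A minus B between days were -0.027, -0.090 and -0.078 over 8031 genes. A fit with the letter as a replicate block called 26 higher and 6 lower to Day 7 and 17 higher and 9 lower to Day 10. Fold changes of the 15 collagens under 10 CPM in every library rest on fewer UMIs, and their standard errors reached 1.04 on the log2 scale for *Col6a4* to Day 10.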
